A study of Mus musculus with 14 samples.

Results

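Exosomes released by IL4-stimulated macrophages were compared with exosomes released by control macrophages. The members were the libraries whose titles call them extracellular exosome, 8 of the 14 libraries in the series. Of these, 4 carried IL4 in the title and 4 carried WT, and the titles gave each group 1 library at each of 4 dates: 25 January (replicate 1), 16 March (replicate 2), 5 April (replicate 3) and 29 December of the year before (replicate 4). The remaining 6 libraries, 3 IL4 and 3 control, were cell lysates made at other dates and enter only where the cells are set beside their exosomes.

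The source of all libraries was mouse bone marrow from excised bone. The IL4 group is labelled as stimulated macrophages and the other group as wild-type control. Both groups went through the same steps: debris was spun out of the culture supernatant, the vesicles were banded on an OptiPrep density gradient, and small RNA libraries were made with a NextFlex kit. Mouse strain, sex, age, the dose and duration of IL4 and the number of cultures behind a library are not stated in the labels. P-values therefore measure only how far these libraries scatter, and that scatter may be technical. A sequencing library also gives shares, so that fewer vesicles of one kind and less of a miRNA per vesicle cannot be told apart.

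MicroRNAs (miRNAs) are short RNAs that guide Argonaute proteins to messenger RNAs, mainly through the seed, the bases near the 5′ end that pair with the target. Exosomes are small vesicles of endosomal origin that carry miRNAs out of the cell and can deliver them to others. IL4 is the cytokine that drives macrophages towards the alternative activation state seen in tissue repair and in type 2 immunity.

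The differences centred on a few miRNAs, several of which have a near-identical paralog. Mature sequences are from RefSeq (GRCm38.p6) and are written 5′ to 3′, with the seed (bases 2 to 8) in capitals. The first 2 share 1 seed, and the next 3 share another. They are shown because members of 1 seed family lay on opposite sides of 0, which was also so in other families, such as let-7.
miR-146b-5p: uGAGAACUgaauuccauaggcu
miR-146a-5p: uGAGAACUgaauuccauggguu
miR-99a-5p: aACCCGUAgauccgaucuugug
miR-100-5p: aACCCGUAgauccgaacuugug
miR-99b-5p: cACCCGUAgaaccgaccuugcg
Counted from 1 at the 5′ end, miR-146b-5p differs from miR-146a-5p by G18A and U21C (the miR-146a-5p base first). Between miR-99a-5p and miR-100-5p the 1 difference is U16A (the miR-99a-5p base first), and miR-99b-5p differs from miR-99a-5p by A1C, U11A, U16C and U21C. All of these lie outside the seed. Reads that carry an error or stop short at such a base could be counted for the wrong paralog, and the labels do not name the counting program.

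The other miRNAs with an unadjusted p under 0.05 are shown for their size of difference, and no 2 of those printed here share a seed.
miR-223-3p: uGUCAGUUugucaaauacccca
miR-362-5p: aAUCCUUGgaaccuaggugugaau
miR-532-3p: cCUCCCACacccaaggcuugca
miR-493-5p: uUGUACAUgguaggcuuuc
miR-339-5p: uCCCUGUCcuccaggagcucacg
miR-144-3p: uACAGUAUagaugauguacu
miR-451a: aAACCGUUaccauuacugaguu
miR-378a-3p also belongs to this group.

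The 10 most abundant lines held 48.3% to 62.9% of counts in the 8 exosome libraries and are shown for that reason. They were miR-30d-5p and the lines printed here, with let-7 members sharing 1 seed.
miR-21a-5p: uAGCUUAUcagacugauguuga
let-7f-5p: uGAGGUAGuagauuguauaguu
let-7a-5p: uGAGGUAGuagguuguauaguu
let-7c-5p: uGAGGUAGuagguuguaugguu
miR-26a-5p: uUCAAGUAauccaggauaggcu
miR-27b-3p: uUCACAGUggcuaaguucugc
miR-92a-3p: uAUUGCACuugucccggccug
miR-203-3p: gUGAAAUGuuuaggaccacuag
miR-203b-5p: aGUGGUCCuaaacauuucac
The whole of miR-203b-5p is contained, as the reverse complement, in miR-203-3p, and they map to opposite strands of the same place, chr12:112130927-112130946 and chr12:112130927-112130948. Their counts stood in a ratio of 1.01 to 1.53 in the 8 libraries, so they may be 1 signal counted under 2 names.

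Depth was low and uneven. Total miRNA counts were 28417, 54381, 199025 and 36576 in control replicates 1 to 4 and 50032, 74646, 411671 and 76729 in IL4 replicates 1 to 4, and at the smallest total 1 count is worth 35.2 CPM (counts per 1000000 miRNA counts of the library). Of 1250 miRNA lines, 758 had a count in some exosome library, 214 in all 8, and 182 (14.6%) passed the filter on low counts and were tested. The tested lines held 97.9% to 99% of counts. No line had counts in all 4 libraries of one group and none in the other. After thinning to 28417 counts, 329 ± 17.9 lines were detected with IL4 and 339 ± 17.3 in controls (SD, n = 4). The difference of -10 lines was within the spread of the libraries (exact permutation test, two-sided, p = 0.4). Fewer lines were detected with IL4 at each date, and permuted within dates p was 0.125 (exact permutation test), the smallest possible.

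In IL4 exosomes 1 miRNA rose past the threshold, and that was miR-146b-5p, a repressor of Toll-like receptor signalling that targets Traf6 and Irak1. By the quasi-likelihood test of edgeR, Benjamini-Hochberg adjusted over the 182 lines, 1 line was called higher (0.549% of those tested) and 0 were called lower (0%) at an adjusted p of 0.05. DESeq2 with its own filter also called 1 higher and 0 lower. On the same 182 lines, an alternative chosen after seeing the data, DESeq2 called 6: miR-146b-5p, miR-99a-5p, miR-378a-3p and miR-362-5p higher, and miR-100-5p and miR-223-3p lower. At an unadjusted p under 0.05 there were 12 lines (6.59%), of which 5 were higher (2.75%) and 7 lower (3.85%) with IL4. Over all tested lines the log2 fold change, IL4 minus control, was positive for 75 and negative for 107, with a median of -0.09. Scaling by library size alone moved this split to 51 positive and 131 negative and the median by -0.16, so small differences on either side of 0 have no fixed direction.

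**Figure D1:**
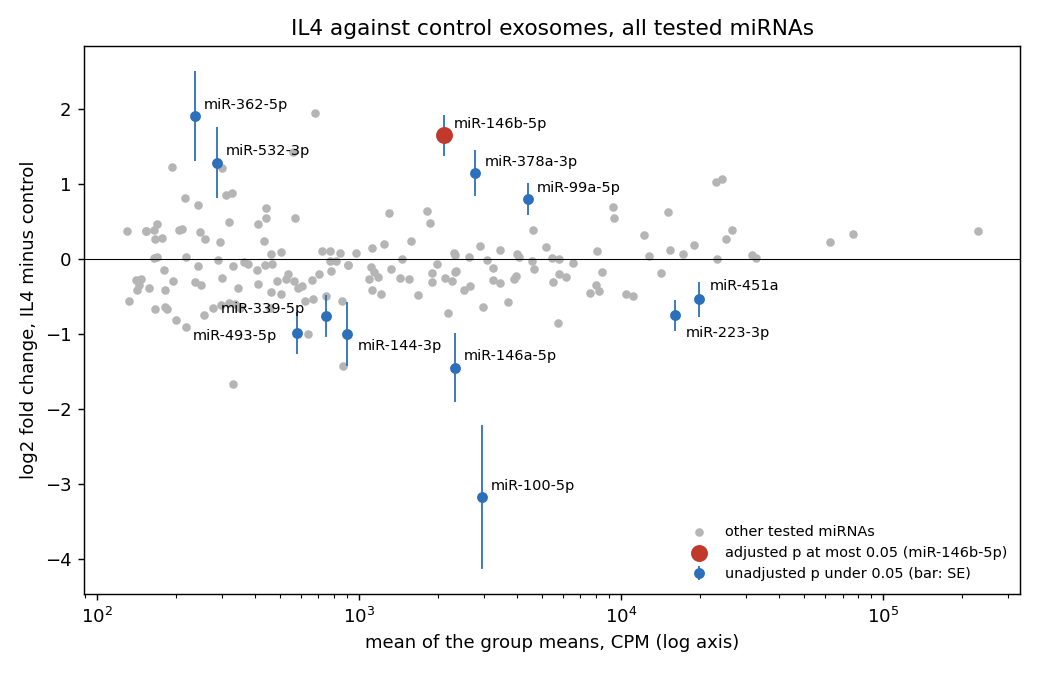
Log2 fold change (IL4 minus control, vertical axis) of the 182 tested miRNA lines against the mean of the group means in CPM (horizontal log axis). Bars are standard errors of the 12 lines with an unadjusted p under 0.05, and miR-146b-5p, at 1.65, is the 1 line with an adjusted p at or under 0.05.

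The level of miR-146b-5p was 1267, 1011, 1065 and 1039 CPM in control replicates 1 to 4. In IL4 replicates 1 to 4 it was 1799, 3389, 4555 and 2802 CPM. Every IL4 library lay above every control library, with the IL4 library of 25 January the lowest of its group and its control the highest of the controls. The ratio of IL4 to control at the 4 dates was 1.42, 3.35, 4.28 and 2.70. The log2 fold change was 1.65 (SE 0.27, adjusted p = 0.0296, 4 against 4 libraries), a 3.14-fold rise. Leaving out 1 of 3 libraries ended the call: control replicate 2 (adjusted p = 0.076), control replicate 3 (0.0552) and IL4 replicate 3 (0.051). Scaling by library size alone ended it too (0.0859), while the log2 fold change was 1.52 or more in all 21 alternatives. Its hairpin lies at chr19:46342762-46342870 (plus strand, GRCm38.p6) in an intron of Mfsd13a.

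Its paralog miR-146a-5p, an NF-kB-induced brake on the same adaptors, was lower with IL4 at each of the 4 dates and did not pass the test. Control replicates 1 to 4 held 1548, 2905, 3884 and 5577 CPM. IL4 replicates 1 to 4 held 819, 1085, 729 and 2007 CPM. The groups overlapped, because the IL4 library of 29 December exceeded the control of 25 January. The log2 fold change was -1.44 (SE 0.46, adjusted p = 0.243), or -0.91 without control replicate 4 (adjusted p = 0.481). When dates were blocked, the SE shrank to 0.27 and the adjusted p was 0.0523. With no filter on low counts it was called (adjusted p = 0.0149). The miR-146a hairpin is at chr11:43374397-43374461 on the minus strand, with no host gene in the annotation.

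With the paralogs on opposite sides of 0, their sum did not pass the test. Counts summed over the seed GAGAACU came to 4296 ± 1167 CPM with IL4 and 4574 ± 1616 in controls (SD, n = 4; log2 fold change 0.13, SE 0.30, adjusted p = 0.895 over 148 sums). The make-up of the sum was then compared. The count of miR-146b-5p divided by that of miR-146a-5p was 0.818, 0.348, 0.274 and 0.186 in control replicates 1 to 4 and 2.195, 3.12, 6.25 and 1.396 in IL4 replicates 1 to 4. In every control library miR-146a-5p was the more abundant paralog, and in every IL4 library miR-146b-5p was. This ratio does not depend on library scaling, but it was chosen after the values were seen and has no test.

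**Figure D2:**
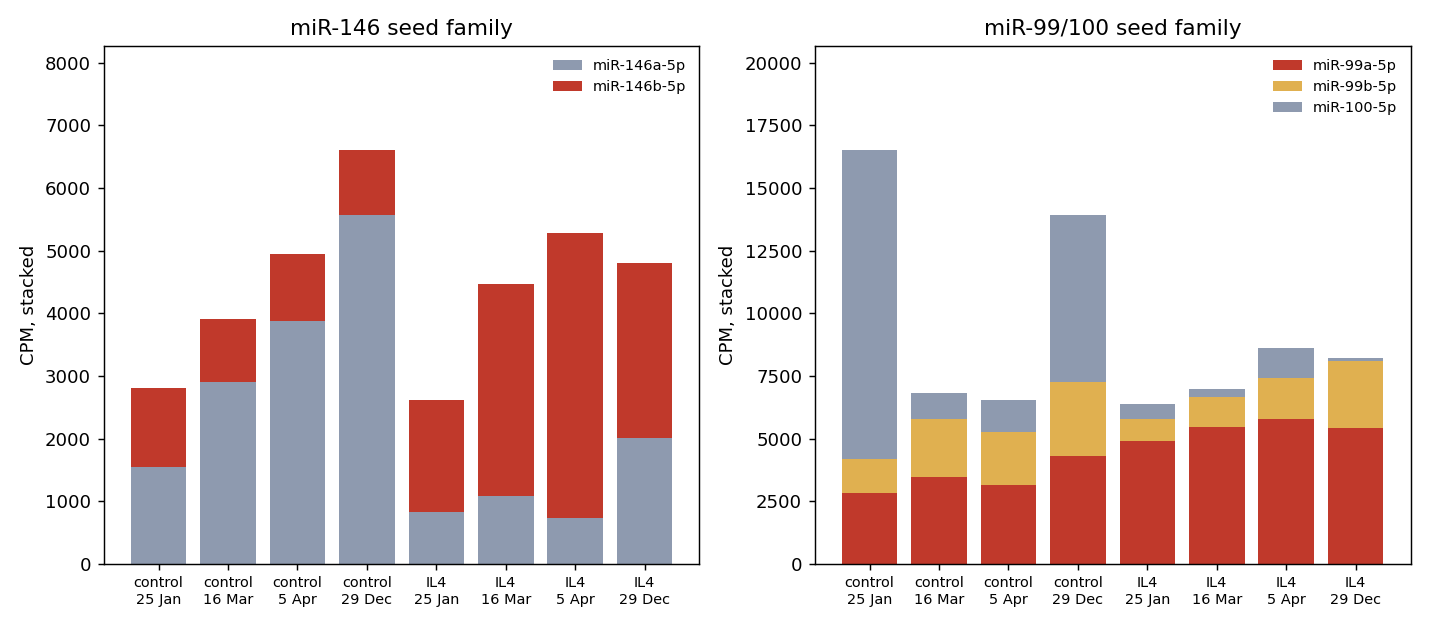
Stacked level in CPM of the miR-146 pair (left) and the miR-99/100 trio (right) in each exosome library, controls first. The miR-146 sums of the groups overlap, and the larger share belongs to miR-146a-5p in every control and to miR-146b-5p in every IL4 library, and in the right panel miR-100-5p is large in the controls of 25 January and 29 December.

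The members of a second seed family also lay on opposite sides of 0, and none passed the edgeR test over all 8 libraries. Mixed signs were not particular to these families. Of the tested let-7 members 6 of 9 were positive, and of the miR-29 family 2 of 3. miR-99a-5p, which targets Mtor and is processed from a transcript it shares with let-7c and miR-125b, had 2815, 3475, 3135 and 4292 CPM in control replicates 1 to 4. In IL4 replicates 1 to 4 it had 4897, 5479, 5767 and 5422 CPM. The groups did not overlap, and the IL4 libraries lay within 1 narrow band. Its log2 fold change was 0.80 (SE 0.21, adjusted p = 0.216, or 0.0821 when dates were blocked). It was called without control replicate 4 (1.12, adjusted p = 0.0225), by limma-voom (0.0481) and by DESeq2 on the same lines (0.00797). It is encoded at chr16:77598936-77599000, plus strand, in an intron of Mir99ahg.

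miR-100-5p, its neighbour in sequence, had 12352, 1030, 1266 and 6671 CPM in control replicates 1 to 4. In IL4 replicates 1 to 4 it had 600, 308, 1183 and 117 CPM. It was lower with IL4 at each date, but its control values were widely spread and the groups overlapped. The log2 fold change was -3.17 (SE 0.96, adjusted p = 0.243). Without control replicate 1 it was -2.12 (adjusted p = 0.484), and with limma-voom -1.77 (0.513). It was called with no filter on low counts (adjusted p = 5.26e-12) and by DESeq2 on the same lines (0.00797). Lysates held 21.02 CPM with IL4 and 12.6 in controls, so the cells carried little of it in either state. Its hairpin lies at chr9:41531425-41531504, plus strand, in an intron of the non-coding gene 3110039I08Rik. miR-99b-5p, from another cluster with let-7e and miR-125a, stood at -0.30 on the log2 scale (SE 0.36, adjusted p = 0.862).

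The sum over the seed ACCCGUA was 7551 ± 1039 CPM with IL4 and 10950 ± 5055 in controls (SD, n = 4; log2 fold change -0.35, SE 0.39, adjusted p = 0.854). The ratio of miR-99a-5p to miR-100-5p was 0.228, 3.38, 2.48 and 0.643 in control replicates 1 to 4 and 8.17, 17.8, 4.87 and 46.2 in IL4 replicates 1 to 4. Every IL4 library lay above every control, but this ratio too was chosen after the values were seen and has no test. Of the 148 sums tested, 124 were over a seed read from a matched sequence. The other 24 were single lines with no matched sequence, among them miR-378a-3p, miR-30d-5p, miR-30b-5p and miR-23b-3p, so that the sums of such seeds lack those members. With edgeR 0 of the 148 were called (0%), and 9 had an unadjusted p under 0.05, of which 2 were such single lines. With the date as a block 0 were called, and DESeq2 also called 0.

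**Figure D3:**
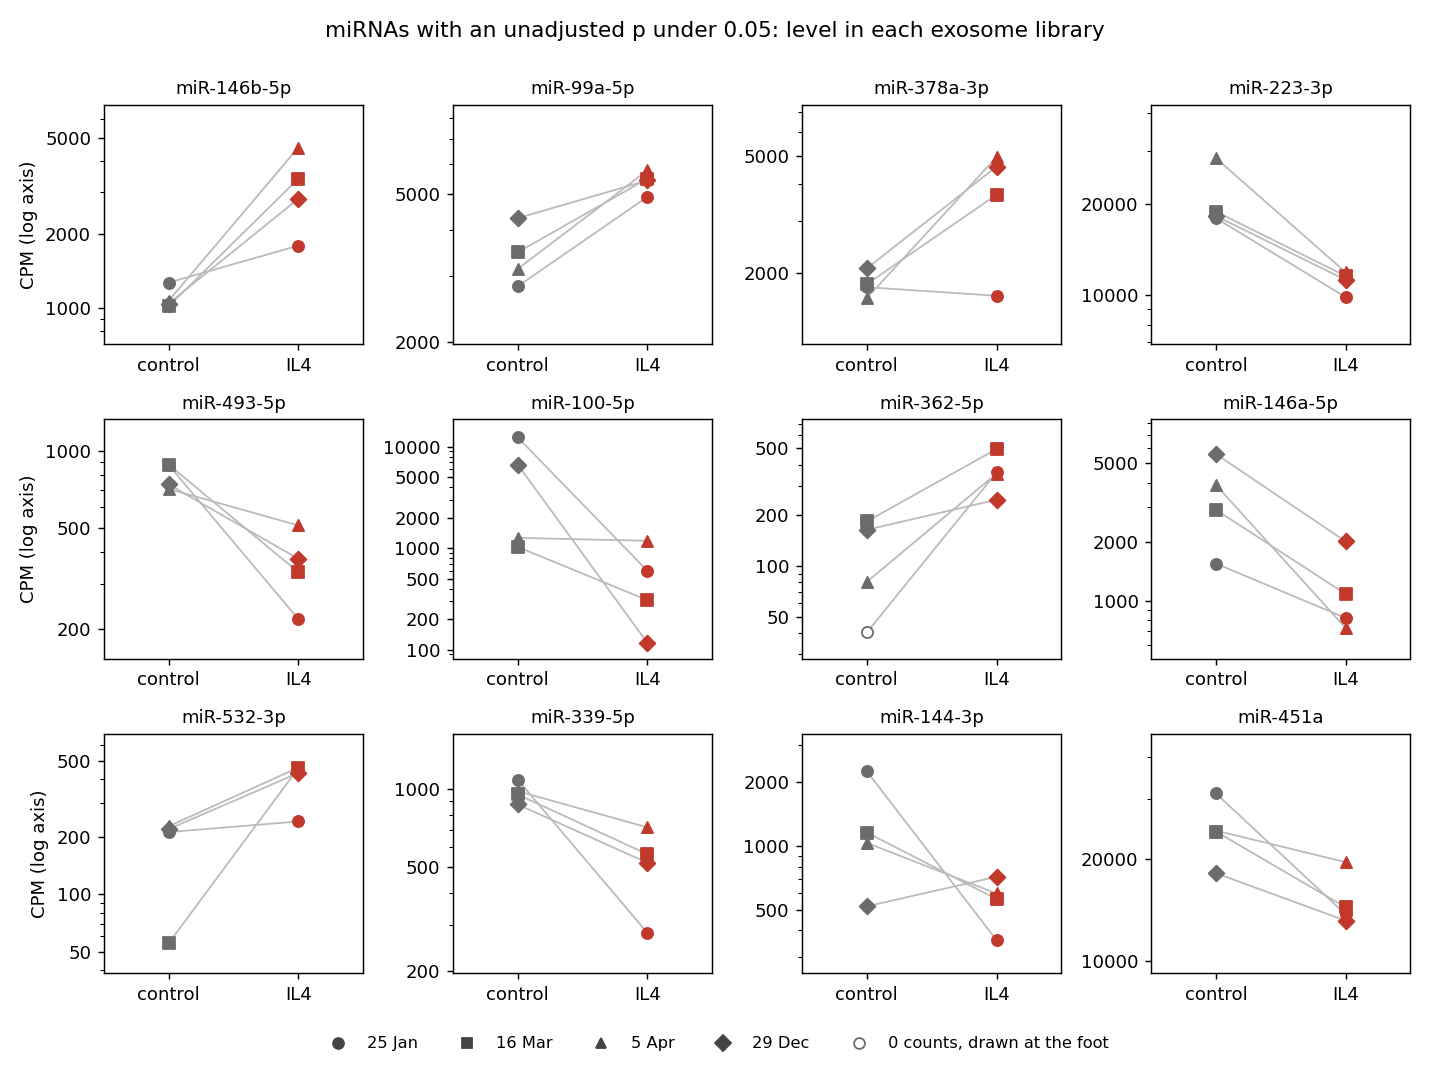
Level in CPM (log axes) of the 12 miRNAs with an unadjusted p under 0.05 in each exosome library, with the libraries of 1 date joined by a line and the date given by the symbol. miR-146b-5p, miR-99a-5p, miR-362-5p and miR-532-3p are higher with IL4 at 4 of 4 dates, and the open symbol is a control library with 0 counts of miR-362-5p.

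Of the remaining higher miRNAs, miR-378a-3p comes from the gene of the metabolic coactivator Ppargc1b. Control replicates 1 to 4 had 1795, 1839, 1648 and 2078 CPM, and IL4 replicates 1 to 4 had 1679, 3684, 4941 and 4588 CPM. At 3 of 4 dates the IL4 library was higher; that of 25 January lay among the controls. The log2 fold change was 1.15 (SE 0.30, adjusted p = 0.216). Without IL4 replicate 1 it was 1.42, with an adjusted p of 0.0253. It was also called with no filter on low counts (adjusted p = 0.0183) and by DESeq2 on the same lines (0.00797).

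miR-362-5p and miR-532-3p come from 1 cluster of miRNAs in introns of the chloride transporter gene Clcn5 on the minus strand of the X chromosome. miR-362-5p (chrX:7241982-7242046) had 0, 184, 80.4 and 164 CPM in control replicates 1 to 4 and 360, 496, 355 and 248 in IL4 replicates 1 to 4. Its counts were small, at 0, 10, 16 and 6 in controls and 18, 37, 146 and 19 with IL4. A count of 0 in control replicate 1 allows up to 3 counts, or 105.6 CPM, by counting error alone. The groups did not overlap, and the log2 fold change was 1.91 (SE 0.60, adjusted p = 0.243; 0.0114 by DESeq2 on the same lines).

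miR-532-3p (chrX:7248402-7248497) had 211, 55.2, 226 and 219 CPM in control replicates 1 to 4 and 240, 455, 459 and 430 in IL4 replicates 1 to 4. The groups were separate, though the IL4 library of 25 January stood close to the controls. Its log2 fold change was 1.29 (SE 0.47, adjusted p = 0.431). Of 5 tested lines placed in this cluster, 4 were positive, with a median of 0.27. The others were miR-500-3p at 0.27, miR-501-3p at 0.25 and miR-362-3p, the other arm of the miR-362 hairpin, at -0.03. miR-532-5p, the other arm of the miR-532 hairpin, had 0.48 (SE 0.25, adjusted p = 0.804).

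Among the lower miRNAs, miR-223-3p, which limits neutrophil output and dampens the NLRP3 inflammasome, was the most abundant after miR-451a. Control replicates 1 to 4 held 17982, 18904, 28403 and 18291 CPM. IL4 replicates 1 to 4 held 9854, 11575, 11910 and 11234 CPM. Every IL4 library lay below every control, and the IL4 libraries differed little among themselves. The log2 fold change was -0.75 (SE 0.20, adjusted p = 0.216, or 0.0821 when dates were blocked), 1.68-fold lower with IL4. Without control replicate 3, the highest library, it was -0.46 (adjusted p = 0.47), and DESeq2 on the same lines called it (adjusted p = 0.0319). The other arm, miR-223-5p, was lower at each date as well, with -0.58 (SE 0.42, adjusted p = 0.804). The hairpin is at chrX:96242817-96242926, plus strand, in an exon of the non-coding gene F630028O10Rik.

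miR-493-5p, encoded in the imprinted Dlk1-Dio3 region of chromosome 12, had 880, 883, 708 and 738 CPM in control replicates 1 to 4 and 220, 335, 510 and 378 in IL4 replicates 1 to 4. The groups did not overlap (log2 fold change -0.98, SE 0.29, adjusted p = 0.243). miR-339-5p, from an intron of 3110082I17Rik on chromosome 5, had 1091, 956, 985 and 875 CPM against 280, 563, 714 and 521. It was also separate between groups, at -0.76 (SE 0.28, adjusted p = 0.431), or -0.44 without both libraries of 25 January. Lysates held 321 CPM of miR-339-5p with IL4 and 430 in controls, but only 0.852 and 0.487 CPM of miR-493-5p.

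miR-144-3p and miR-451a, made from neighbouring hairpins at chr11:78073005-78073241 and known as erythroid miRNAs, completed the 12. miR-451a had 31249, 24108, 24268 and 18154 CPM in control replicates 1 to 4 and 13711, 14388, 19571 and 13137 in IL4 replicates 1 to 4. It was lower at each date, and the groups overlapped (log2 fold change -0.54, SE 0.23, adjusted p = 0.684). Leaving out control replicate 1 brought miR-451a to -0.19, and leaving out IL4 replicate 2 or 4 gave -0.33 or -0.32. miR-144-3p had 2252, 1158, 1035 and 519 CPM against 360, 563, 598 and 717, with -0.99 (SE 0.43, adjusted p = 0.684) and the opposite order at 29 December. Without control replicate 1, the highest library, it was -0.35 (adjusted p = 0.748), and without both libraries of 25 January -0.31. Lysates held 9.44 CPM of miR-451a with IL4 and 17.2 in controls.

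Counting groups that do not overlap gave 5 lines with IL4 above (2.75% of tested lines) and 6 below (3.3%). Beyond those described, miR-130b-5p was above, at 0.55 on the log2 scale (adjusted p = 0.804). Below were the line that joins the miR-486 guide arms at -0.49, miR-93-5p at -0.24 and miR-106b-5p at -0.18. The last pair are neighbours in Mcm7, and their SEs were 0.17 and 0.19. In CPM, 14 lines were higher at 4 of 4 dates (7.69%) and 52 were lower (28.6%).

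The 10 most abundant lines, ranked by mean CPM over these same 8 libraries, took more of the IL4 libraries. Their choice used the values that were then compared, among them the high miR-203 values of IL4 replicate 1. Their share was 53.8%, 50.3%, 48.3% and 55.0% in control replicates 1 to 4 and 62.9%, 58.2%, 57.1% and 59.2% in IL4 replicates 1 to 4. The groups did not overlap, and the means were 59.4% ± 2.48 and 51.8% ± 3.09 (SD, n = 4). The difference of 7.53 percentage points had p = 0.0286 (exact permutation test, two-sided), the smallest that 4 against 4 can give. Permuted within dates, p was 0.125, again the smallest possible. Without IL4 replicate 1 the difference was 6.37 points (p = 0.0571, exact permutation). With the miR-203 lines left out of lists and totals, the share was 60.3% ± 1.18 against 54.6% ± 2.40. The groups then lay close, at 58.6% to 61.3% with IL4 and 52.9% to 58.0% in controls.

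miR-21a-5p, an abundant miRNA of activated myeloid cells encoded in Vmp1, was the largest contributor. It made up 24.8% of counts with IL4 and 21.3% in controls on average. Control replicates 1 to 4 had 191927, 218017, 251205 and 189004 CPM, and IL4 replicates 1 to 4 had 201631, 296144, 297526 and 194855 CPM. It was higher at each date by 1.03 to 1.36-fold while the groups overlapped (log2 fold change 0.37, SE 0.19, adjusted p = 0.804). The let-7 members in the top 10 were let-7f-5p at 0.33, let-7a-5p at 0.23 and let-7c-5p at 0.39, and none was called. For miR-30d-5p, miR-26a-5p, miR-27b-3p and miR-92a-3p the values were 0.01, 0.06, 0.27 and 0.01; by library size alone those of miR-30d-5p, miR-26a-5p and miR-92a-3p were negative.

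The miR-203 lines differed between dates far more than between groups. miR-203-3p, known from keratinocytes and other epithelia, had 47542, 12486, 653 and 9186 CPM in control replicates 1 to 4 and 100436, 6658, 197 and 17803 in IL4 replicates 1 to 4. The IL4 library was the higher at 2 of 4 dates (log2 fold change 1.07, SE 1.49, adjusted p = 0.862), and its sign turned without IL4 replicate 1 (-0.96). Lysates held 11.9 CPM with IL4 and 18.1 in controls.

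The lists of known miRNAs can be read against all 182 tested lines, of which 75 were positive. Of the study's own miRNAs, 3 of 4 could be tested and all were positive, 1 of them called, but the study chose them on these samples, so this supports nothing by itself. miR-33-5p, a repressor of Abca1, was not tested. It had 30 counts with IL4 and 12 in the shallower controls, or means of 88.9 and 64.4 CPM. Of 10 tested miRNAs reported to respond to IL4 in macrophages, 8 were positive, with a median of 0.47, and 1 was called. That list contains the study's own miRNAs. Its negative members were miR-223-3p and miR-34a-5p, and miR-125b-5p, one of whose genes lies beside that of miR-99a, had 0.70 (SE 0.40, adjusted p = 0.804). miR-511, the IL4-linked miRNA in the mannose receptor gene Mrc1, was too low to test: miR-511-3p had 37 counts with IL4 and 12 in controls. Its means were 41.7 CPM with IL4 and 29.3 in controls.

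Inflammatory miRNAs were evenly split, with 4 of 8 positive, a median of -0.06 and miR-146b-5p the 1 call. The negative members were miR-146a-5p, miR-155-5p, miR-125a-5p at -0.41 and miR-221-3p at -0.19. Of these, miR-155-5p is an NF-kB-induced miRNA that promotes inflammatory activation. miR-155-5p was lower at each date, with 282, 680, 653 and 820 CPM in control replicates 1 to 4 and 180, 375, 459 and 573 in IL4 replicates 1 to 4 (log2 fold change -0.47, SE 0.40, adjusted p = 0.86). The groups overlapped. Of 9 cholesterol-related miRNAs, 4 were positive and 0 were called (median -0.15), with miR-144-3p the 1 member at an unadjusted p under 0.05. Its highest value was that of miR-27a-3p, 0.54 (SE 0.64, adjusted p = 0.862), which became -0.08 without both libraries of 25 January. Scaling by library size alone made this 2 of 9, and 3 of 8 for the inflammatory list.

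Haematopoietic regulators leaned the other way: 3 of 13 were positive, the median was -0.36, and 0 were called in either direction. At an unadjusted p under 0.05 the list had 2 lower members, miR-223-3p and miR-146a-5p. Its positive members were miR-125b-5p, miR-181b-5p at 0.61 (SE 0.32, adjusted p = 0.804; higher at 4 of 4 dates) and miR-181a-5p at 0.03. Among the rest, miR-150-5p, abundant in lymphocytes, had -0.46, the endothelial and progenitor miRNA miR-126a-3p -0.47 and the pan-leukocyte miR-142a-5p -0.22. The count of positive members stayed at 2 or 3 under the 3 other scalings.

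Of the clustered families, 7 of 8 tested lines of the miR-23/27/24 clusters were positive (median 0.41; 6 of 8 by library size alone), with 0 called. miR-23b-3p had 16152, 11898, 7331 and 14982 CPM in control replicates 1 to 4 and 21726, 17241, 12495 and 18872 in IL4 replicates 1 to 4, higher at each date and overlapping (log2 fold change 0.63, SE 0.34, adjusted p = 0.804). The highest value was that of miR-27b-5p at 1.22 (SE 0.66, adjusted p = 0.804), and the negative member was miR-24-3p at -0.43 (SE 0.25, adjusted p = 0.804). The 9 tested let-7 members ran from -0.25 for let-7e-5p to 0.39 for let-7c-5p. They were positive in 6 of 9 (median 0.12), which became 4 of 9, with a median of -0.04, by library size alone. All 10 tested lines of the Dlk1-Dio3 list were negative under each of the 4 scalings. Their median was -0.57, from -0.98 for miR-493-5p to -0.29 for miR-487b-3p. Of these, 0 were called and 1 had an unadjusted p under 0.05. The list left out miR-382-3p, miR-411-3p and miR-494-3p, tested lines of the same region. They were negative too, the value closest to 0 being -0.06. The summed share of the list was lower at 4 of 4 dates, as were 52 of all 182 tested lines (28.6%). Without both libraries of 25 January miR-487b-3p turned positive (0.10). An example is miR-379-5p, which had 473 ± 228 CPM with IL4 and 775 ± 299 in control exosomes (SD, n = 4) and 0.767 and 0.744 CPM in the lysates.

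Other families held fewer or mixed positive members. The miR-17/92 clusters had 3 of 9 positive (median -0.18), from -0.74 for miR-18a-5p to 0.29 for miR-17-3p. The miR-15/16 family had 0 of 4 (median -0.22; 1 of 4 with RLE scaling), from -0.36 for miR-15a-5p to -0.02 for miR-15b-5p, and the miR-30 guide arms had 2 of 5 (median -0.17), from -0.26 for miR-30a-5p to 0.03 for miR-30c-5p. Of 3 tested lines of miR-221 and miR-222, 2 were positive, from -0.19 for miR-221-3p to 0.55 for miR-221-5p. The miR-29 family also had 2 of 3, from -0.30 for miR-29a-3p to 0.72 for miR-29b-3p. The values of miR-30c-5p and miR-15b-5p, close to 0, changed sign with the scaling. None of these lists had a call or a member with an unadjusted p under 0.05. Of 25 hairpins with both arms tested, 18 had arms of the same sign. Of 24 genomic clusters with at least 2 tested lines, 15 had all lines on 1 side of 0. Several of the 24 were a single hairpin with both arms tested, already counted among the 25, so these counts overlap. The cluster with the most lines was the Dlk1-Dio3 stretch at chr12:109709060-109743496, with 10 of 10 lines negative. These lines are only in part those of the Dlk1-Dio3 list.

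Markers of the cell types that the cultures could hold were summed as a percent of each library's counts. Myeloid markers, among them miR-21a-5p, miR-223-3p and miR-142a, took 21.4% to 31.8% of IL4 libraries and 21.8% to 28.9% of control libraries. Most of that sum was miR-21a-5p, which averaged 24.8% with IL4 and 21.3% in controls. It was the 1 positive member of the 5 tested. The other 4, both arms of miR-223 and of miR-142a, were negative, and the median of the list was -0.22. Erythroid markers took 2.19% to 3.08% with IL4 and 2.97% to 5.54% in controls and were lower with IL4 at 4 of 4 dates. Endothelial markers (miR-126a, both arms) took 0.410% to 1.59% against 0.686% to 2.75%, and stromal markers 0.378% to 0.788% against 0.580% to 1.02%. Both were also lower at 4 of 4 dates. That was common in CPM, where 52 of all 182 tested lines (28.6%) were lower at 4 of 4 dates. So were the summed shares of the haematopoietic list and of the miR-29 family, whose median log2 fold change was 0.39. Liver, gut and serum markers took 0.188% to 0.828% against 0.134% to 1.30%, with miR-122-5p the largest. The lowest and highest tested members were miR-144-3p and miR-486b-3p (0.37) among erythroid markers, miR-126a-5p (-0.64) and miR-126a-3p (-0.47) among endothelial ones, and the miR-199 3p line (-0.39) and miR-140-5p (-0.01, positive with RLE scaling) among stromal ones. Of the liver, gut and serum markers, miR-122-5p had -0.85 and miR-194-5p -0.30, and the muscle marker miR-1a-3p had -1.43 (SE 0.75, adjusted p = 0.804). Among epithelial markers miR-205-5p had 1.95 (SE 1.79, adjusted p = 0.862) and miR-203b-5p, the lowest of 3, 1.03 (SE 1.51, adjusted p = 0.862); both turned negative without IL4 replicate 1. No marker line was at 0 in all 8 libraries. The erythroid share is itself a sum of miR-451a, miR-144 and miR-486 lines, and the endothelial share a sum of miR-126a lines. These shares are therefore not separate from the values of those miRNAs. Whether the mix of cell types had a part in those values, or in the Dlk1-Dio3 values, was not tested.

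**Figure D4:**
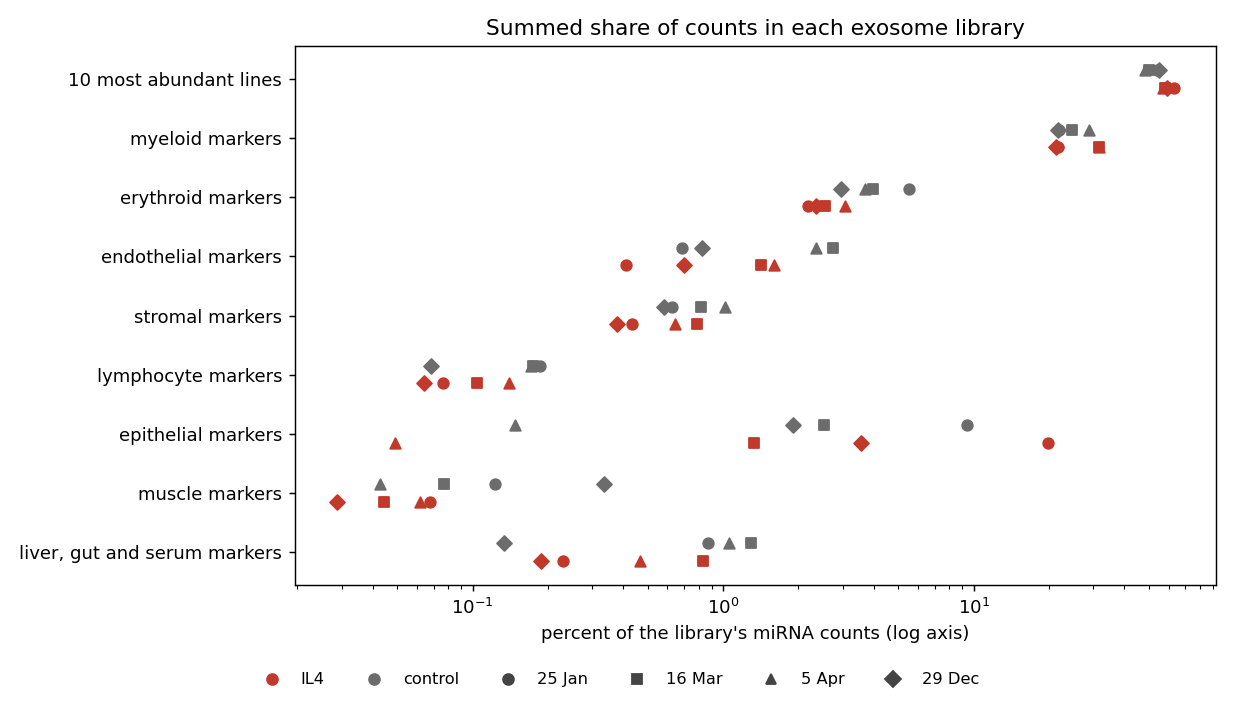
Percent of each exosome library's miRNA counts (log axis) taken by the 10 most abundant lines and by each list of cell type markers, with IL4 and control in separate colours and the date given by the symbol. Erythroid, endothelial, stromal and lymphocyte markers lie lower with IL4 at each date, and epithelial markers span 0.0488% to 19.8%. Of all 182 tested lines, 28.6% are lower with IL4 at each date in CPM.

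The differences in exosomes were last set beside those in the cells, which share no library with them. Over 162 miRNAs tested in both compartments, the log2 fold changes had Pearson r = 0.30 and Spearman rho = 0.30 across miRNAs, which are not independent replicates, and 62.3% had the same sign. Of the 443 miRNAs tested in lysates, 32 were called (7.22%). Of these calls, 15 could be tested in exosomes. All 10 that were higher in lysates were positive in exosomes, except that miR-181a-5p, at 0.03, became -0.12 by library size alone. Of the 5 that were lower in lysates, 4 were negative in exosomes. The exception was miR-182-5p, from the miR-183/96/182 cluster, with -0.96 in lysates and 0.86 in exosomes.

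For most of these the exosome value was the smaller. They were picked by their call in lysates, and that choice alone favours larger lysate values. miR-146b-5p had 2.76 in lysates against 1.65 in exosomes, miR-146a-5p -2.26 against -1.44, miR-223-3p -1.24 against -0.75 and miR-378a-3p 1.58 against 1.15. For miR-99a-5p the values were 1.03 and 0.80, while miR-362-5p had 1.05 in lysates and 1.91 in exosomes. Testing the difference of the effects in 1 fit of all 14 libraries, 0 of 338 miRNAs were called with edgeR (0%), 14 (4.14%) had an unadjusted p under 0.05, and DESeq2 called 0. The interaction was -0.98 for miR-146b-5p (adjusted p = 0.994) and 0.66 for miR-223-3p (adjusted p = 0.994).

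The 5 miRNAs with the lowest interaction p were miR-100-5p (-4.01, adjusted p = 0.857), miR-223-5p (1.69, 0.857), miR-27a-5p (3.49, 0.857), miR-182-5p (2.02, 0.857) and miR-8095 (-5.65, 0.857). miR-223-5p had -2.11 in lysates and -0.58 in exosomes. In exosomes miR-27a-5p rested on 25 counts with IL4 and 1 in controls, and miR-8095 on 4 and 15. With the date as a block, the lowest adjusted p was 0.0981, shared by 6 miRNAs: let-7e-5p, which had the lowest unadjusted p, miR-223-5p, miR-99b-5p, miR-182-5p, miR-9-5p and miR-3963.

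**Figure D5:**
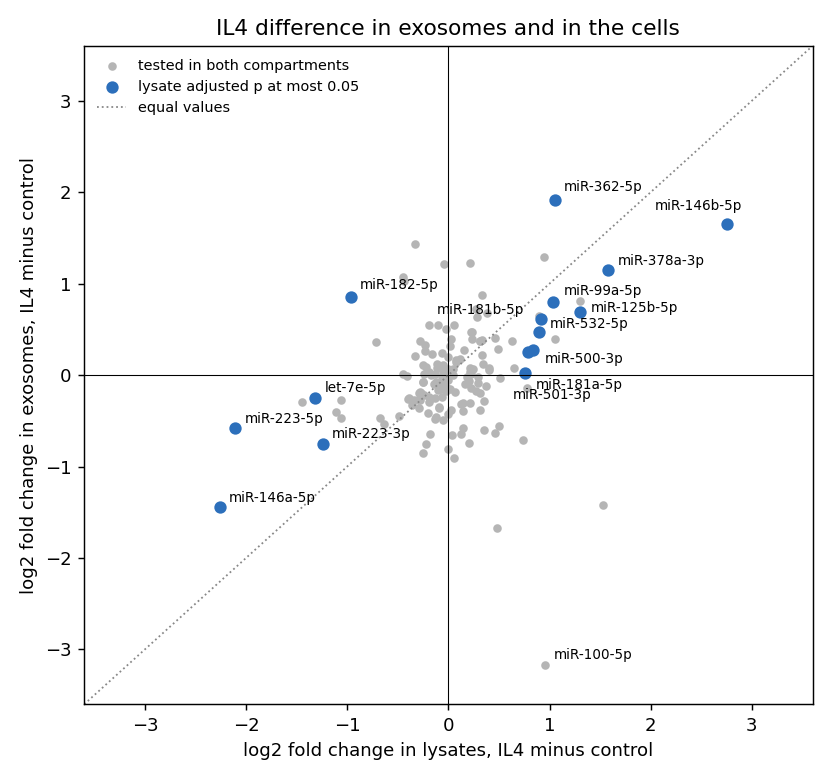
Log2 fold change with IL4 in exosomes (vertical axis) against that in cell lysates (horizontal axis) for the 162 miRNAs tested in both; named large points were called in lysates, and the dotted line marks equal values. All 10 miRNAs called higher in lysates lie above 0 in exosomes (miR-181a-5p below 0 by library size alone), miR-182-5p is the called one with opposite signs, and miR-100-5p, not called in lysates, lies lowest.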

How the data were processed

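Small RNA from 8 exosome libraries, with 6 cell lysate libraries beside them, was analysed from the authors' deposited counts, 1 line per mature miRNA. Per the submitters' processing notes, cutadapt and build mm10 were used; for the aligner, the counter, the annotation and strand, the sources used here give nothing. Reads of paralogs and of overlapping genes may therefore be split between lines. The counts are not normalized. PCR reads are not independent molecules, so floors cover counting error only. Columns were matched to libraries by title, and 0 were left unused.

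CPM, computed here, are counts over the library's total. IL4 was compared with control with edgeR 4.0.16 under R 4.3.3 (TMM factors after filterByExpr, glmQLFit and glmQLFTest, two-sided, Benjamini-Hochberg, threshold 0.05), on exosomes alone, on counts summed by seed (lines with no matched sequence kept single), and, for the difference from lysates, on all 14 libraries. Log2 fold changes use TMM factors. SEs are the absolute log2 fold change over the square root of the F statistic. Alternatives used limma 3.58.1, DESeq2 1.42.0, other scalings and filters, a fixed depth and each library left out. The main edgeR fit was run on simulated counts with large changes and less scatter than these libraries had. That run does not show how well smaller differences would be found. No 2 libraries of a group were alike within sampling noise (chi-square over degrees of freedom at least 20.98).

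The titles give each date to 1 IL4 and 1 control exosome library. Deviations from the group means correlated within dates at 0.46, 0.18, 0.73 and 0.27, and between dates at -0.68 to 0.26. IL4 replicate 2 correlated more with control replicate 3 (0.26) than with the control of its own date (0.18). Dates were taken as pairs and used as a block in an alternative fit. What the date marks is not stated in the labels. miRNAs named are those called or with an unadjusted p under 0.05, the 10 most abundant, the study's 4, the 5 with the lowest interaction p, and extremes and markers from 22 lists. Members, lists and rules were chosen with earlier results of these data known. RefSeq sequences (GRCm38.p6) matched 1051 of 1250 lines, and the build of the sequences is that of mm10.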

Additional observations from a re-analysis of the deposited data

Results flagged for a closer look

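A library was set apart where its gap to the nearest of the other 3 libraries of its group was large for the group's whole range (Dixon's test at the 95% level). This was met by 12 of 140 groups of 4 checked, where chance alone gives about 1 in 20.

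Several of the miRNAs above were among these. Control replicate 3 held 28403 CPM of miR-223-3p, above 17982 to 18904 in the other controls. For miR-532-3p, IL4 replicate 1 held 240 CPM, under 430 to 459 in the other IL4 libraries, and control replicate 2 held 55.2 CPM, or 3 counts, under 211 to 226. Control replicate 4 held 39151 CPM of let-7c-5p, above 17414 to 20711. IL4 replicate 1 stood out for miR-27a-3p at 25404 CPM, above 3734 to 7324, and for the epithelial miRNA miR-205-5p at 3738 CPM, above 4.86 to 248; it also had the highest miR-203 lines.

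In control replicate 4 miR-150-5p was low at 656 CPM, under 1663 to 1865, and with it the summed lymphocyte markers at 0.0684%, under 0.171% to 0.187%. IL4 replicate 4 held 5578 CPM of miR-15b-5p, above 3678 to 3952, and IL4 replicate 2 held 482 CPM of miR-140-5p, above 180 to 221.6. The total counts of replicate 3 were high in both groups, at 411671 with IL4 and 199025 in controls.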

How the results depend on the processing

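The call of miR-146b-5p held in 17 of 21 alternatives, with a log2 fold change of 1.52 to 1.98 and an adjusted p of 5.03e-07 to 0.0859. Against 1 call in all, scaling by library size alone gave 0, limma-voom with quality weights gave 2 (adding miR-99a-5p), no filter on low counts gave 12 (6 higher, 6 lower), and DESeq2 on the filtered lines gave 6 (4 higher, 2 lower). Leaving out each library in turn gave 0 to 2: the call was lost without control replicate 2, control replicate 3 or IL4 replicate 3, and miR-99a-5p was added without control replicate 4 and miR-378a-3p without IL4 replicate 1. The seed sums, with 0 called, gave 8 with no filter, of which miR-378a-3p and miR-122b-3p were single lines with no matched sequence. With each library left out they gave 0 to 1, the 1 being that miR-378a-3p line without IL4 replicate 1. The comparison with lysates gave 3 with no filter in place of 0, and 0 in each of 14 fits with a library left out. The last 3 alternatives of 21 were chosen after seeing the data: DESeq2 on the filtered lines, leaving out both libraries of 25 January, and leaving out the miR-203 lines.

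With the date as a block, 1 miRNA, 0 seed sums and 0 interactions were called, and 29 miRNAs had an unadjusted p under 0.05 against 12. miR-146b-5p had 1.64 (adjusted p = 0.0441). Paired by date, the share of the 10 most abundant lines, 7.53 points, had p = 0.125 (exact permutation test); the block changed no other call. With each library left out this difference was 6.34 to 8.58 points. The difference in total counts, 73670 more with IL4 (p = 0.486, exact permutation test), ran from -12464 to 113478, the negative value being without IL4 replicate 3. At each date the IL4 total was the higher, and permuted within dates p was 0.125 (exact permutation test), the smallest possible.

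Of 1206 values for 59 named miRNAs under the alternatives, 1127 kept their direction and side of the threshold, and 61 changed sign. Changes of sign were among values that had not passed the test, and their cause was not tested. miR-15b-5p and miR-140-5p, both near 0, gave 16 and 14 of them. miR-15b-5p (-0.02 as reported) became 0.064 by RLE or DESeq2 on filtered lines, 0.057 by DESeq2, 0.056 in the fit of 14 libraries, 0.11 with no filter, 0.0038 with at least 10 counts, 0.031 at a fixed depth, 0.035 without 25 January, and 0.079 without the miR-203 lines. miR-140-5p became 0.065 by RLE, 0.068 by DESeq2, 0.17 by voom, 0.13 with no filter, 0.058 in the fit of 14 libraries, 0.078 by DESeq2 on filtered lines, 0.084 without the miR-203 lines, and 0.44 without 25 January. Leaving out that date also gave -0.076 for miR-27a-3p, 0.10 for miR-487b-3p and 0.022 for miR-15a-5p. Library size alone gave -0.15 for miR-30d-5p and miR-92a-3p, -0.086 for miR-26a-5p, -0.12 for miR-181a-5p and -0.10 for miR-30c-5p, and the upper quartile -0.0071 for miR-92a-3p. Voom gave -0.98 for miR-203-3p, -1.20 for miR-203b-5p, -0.46 for miR-205-5p and -0.0061 for miR-486a-3p, and the block gave -0.061 for miR-203b-5p.

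With each library left out, values ran from -0.0123 to 0.21 for miR-15b-5p, -0.22 to 0.42 for miR-140-5p, -0.40 to 0.32 for let-7e-5p, -0.17 to 0.082 for miR-106b-5p, -0.60 to 0.028 for miR-15a-5p, -0.028 to 0.83 for miR-17-3p, -0.54 to 0.017 for miR-194-5p, -0.56 to 0.014 for the miR-199 3p line and -0.96 to 2.66 for miR-203-3p. They ran from -0.94 to 2.58 for miR-203b-5p, -1.44 to 3.98 for miR-205-5p, -0.19 to 0.27 for miR-221-3p, -0.47 to 1.15 for miR-27a-3p, -0.33 to 0.025 for miR-29a-3p, -0.42 to 0.11 for miR-30a-5p and -0.50 to 0.018 for the miR-486 5p line. Depth limits scarce lines most, since 1 count is worth up to 35.2 CPM.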

Other observations

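The tested lines were also divided by their level in the cells, a division made after the data were seen and described without a test. Of 45 lines with a mean under 50 CPM in the lysates, 36 (80.0%) had a negative log2 fold change in exosomes, with a median of -0.46. Of the 137 lines at or over 50 CPM, 71 (51.8%) were negative, with a median of -0.01. The scarce lines included the erythroid miR-451a and miR-144, the endothelial miR-126a, miR-10b-5p, most tested lines of the Dlk1-Dio3 list, miR-100-5p and the miR-203 lines.

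Of the 7 miRNAs that were lower with IL4 at an unadjusted p under 0.05, 4 were scarce in the cells (miR-100-5p, miR-493-5p, miR-144-3p and miR-451a) and 3 were not (miR-223-3p, miR-146a-5p and miR-339-5p). All 5 that were higher were lines at or over 50 CPM in the cells. The scarce lines took 6.02% to 23.98% of counts in IL4 exosomes and 7.84% to 17.6% in controls, and were lower at 4 of 4 dates in 19 of 45 cases against 33 of 137 for the others.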
